A study of Mus musculus with 12 samples.

Results

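The genes described here were the peptides, receptors and binding protein of the brain's stress axis together with genes that glucocorticoid hormone acts through or induces: Crh, Crhr1, Crhr2, Crhbp, Ucn, Nr3c1, Nr3c2, Fkbp5, Sgk1 and Tsc22d3. The 10 genes were chosen by name, by a rule that uses no measured value, though with earlier results of these data known. Of these, 8 had a probe, with 14 probes in all among the 41174 gene probes, which stood for 33390 genes and unnamed transcripts. No probe was matched by accession to Crh or Nr3c2, and both are not analysed here.

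The study measured RNA from 6 brain regions of male mice aged 12 weeks that lacked the cytokine interleukin-18 (IL-18-/-, here KO) and of wild-type (WT) littermates on the C57BL/6 background. The hypothalamus, hippocampus, amygdala, striatum, prefrontal cortex and olfactory bulb each had 1 WT and 1 KO one-colour array. Each array carried RNA pooled in equal parts from 5 mice. Per the series' design text, both genotypes were F2 littermates bred from IL-18-/- males and C57BL/6J females, were killed under diethyl ether at one time of day, and had hypothalamus, amygdala and hippocampus taken from the same coronal level. The labels name no treatment, and they leave unstated whether one set of 5 mice supplied every region.

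Corticotropin-releasing hormone, made by Crh, starts the hormonal stress response from the hypothalamus and acts on CRH receptor 1 (Crhr1), while urocortin (Ucn) binds receptor 1 and receptor 2 (Crhr2), and a secreted protein (Crhbp) binds and holds both peptides. The adrenal glucocorticoid that follows is sensed in the brain by the glucocorticoid receptor (Nr3c1) and the mineralocorticoid receptor (Nr3c2). The receptor switches on genes such as Fkbp5, a chaperone partner that lowers the receptor's own hormone binding, Sgk1, a kinase that regulates ion channels and transporters, and Tsc22d3, also called GILZ, which carries part of the anti-inflammatory action of the hormone.

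Il18, the targeted gene, had levels from 0.57 to 1.12 on the 6 WT arrays and from -4.35 to -3.12 on the 6 KO arrays, so every array matched its genotype label. A level here is the log2 processed signal of a probe relative to the 75th percentile of its array, and levels were compared between arrays only within a probe. The 75th percentile ranged from an intensity of 208 (striatum WT) to 768 (amygdala KO), and 60.8% to 81.3% of the gene spots were well above background. The array labelled amygdala WT was most like the hypothalamus WT array (Pearson r = 0.996 across 19328 genes) and less like its own KO partner (r = 0.983). For the amygdala KO array the closest was hypothalamus KO (r = 0.987). The 7 hypothalamic markers summed to 173 times the 75th percentile on the amygdala WT array, to 149 and 178 on the hypothalamus arrays and to 2.33 on the amygdala KO array. The tests therefore used the 10 arrays of the other 5 regions, and amygdala values are given as labelled. Each slide carried 1 region, with WT always in position 1 and KO in position 3. Genotype and position therefore cannot be told apart, and neither can region and slide. The 2 arrays of a region shared a slide, so the p-values between regions do not take in the spread between slides. Because 1 pool stood for each region and genotype and pools may share mice, the p-values measure only the spread between these arrays.

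The 8 genes differed mainly between regions. Crhr1 was highest in olfactory bulb and prefrontal cortex, Crhr2 in hypothalamus, Sgk1 in hippocampus, and Crhbp was lowest in striatum. Between KO and WT no gene of the 8 passed the test. For Fkbp5, Nr3c1 and Crhr1 the sign of the KO minus WT difference depended on the probe read, and so did the region in which Fkbp5 was highest. The lowest region of Nr3c1 also depended on the probe, as did how far Crhr1 in prefrontal cortex and hippocampus stood from the other regions.

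Each region was set against the mean of the other 4 with limma (genotype as a covariate), and a pair of gene and region was called at a log2 difference of 1 or more with an adjusted p under 0.05. Of 40 pairs, 10 were called, in 6 of the 8 genes, while over all genes 12.1% of pairs were called. In olfactory bulb 1 of the 8 genes was called higher (background 7.55%) and 2 lower (5.75%). In prefrontal cortex 1 was called higher (3.34%) and 2 lower (5.5%). In striatum 1 was called higher (12%) and 1 lower (9.39%), in hippocampus none higher (5.37%) and 1 lower (3.29%), and in hypothalamus 1 higher (3.3%) and none lower (5.14%). The prefrontal cortex and hippocampus slides were scanned on one day and the others on another. All 10 called pairs kept their sign against the regions scanned on the same day, and 9 of them kept a log2 size of at least 1 there. These values come from the same arrays as the calls, so they are no independent check of scan day. For prefrontal cortex and hippocampus each was the only same-day region of the other. The Crhr1 values of both are thus the same difference read in both directions.

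**Figure D1:**
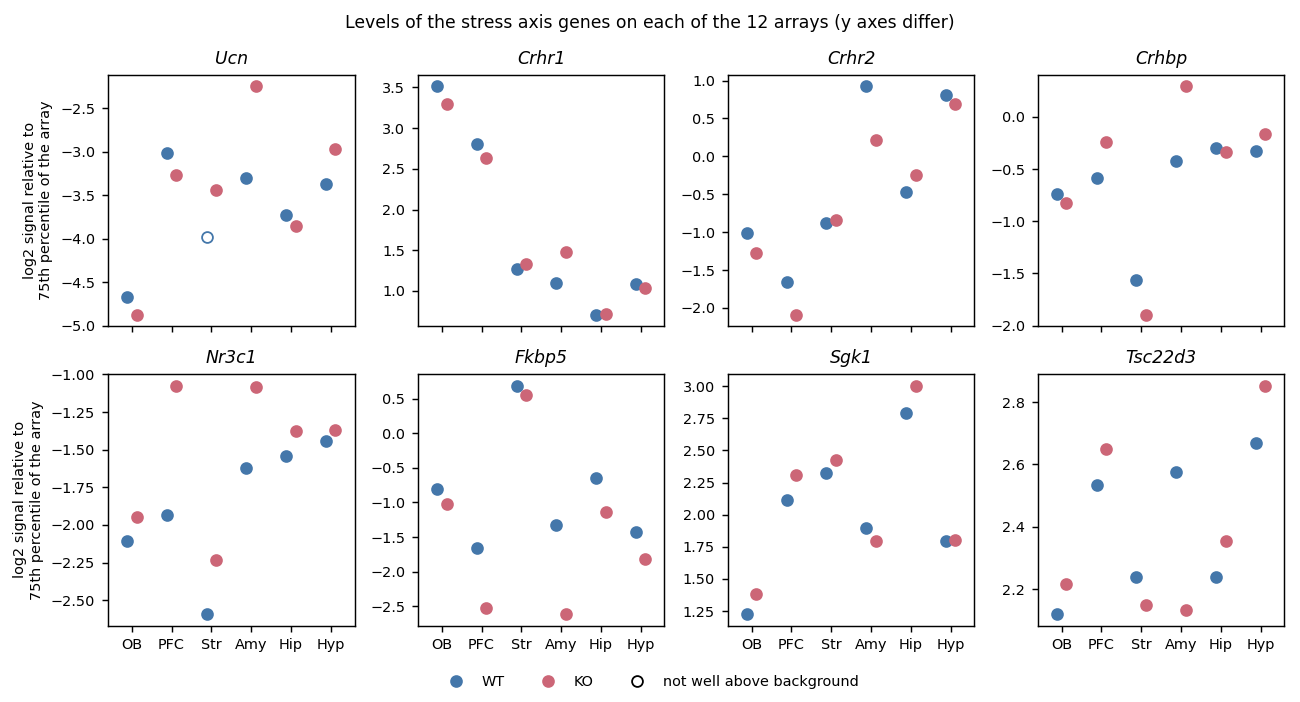
Level of each gene's brightest probe (y axis, log2 signal relative to the array's 75th percentile, scale different in each panel) on the WT and KO array of olfactory bulb (OB), prefrontal cortex (PFC), striatum (Str), amygdala (Amy), hippocampus (Hip) and hypothalamus (Hyp), with 1 point per array. The open point is the 1 array, striatum WT, on which Ucn was not well above background. Crhr1 separates olfactory bulb and prefrontal cortex from the rest, and Sgk1 is highest in hippocampus.

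Ucn, the urocortin gene on chromosome 5, was lowest in olfactory bulb. Its level was -4.67 (WT) and -4.87 (KO) in olfactory bulb, -3.01 and -3.26 in prefrontal cortex, -3.73 and -3.85 in hippocampus, and -3.37 and -2.97 in hypothalamus. In striatum it read -3.43 on the KO array, whereas its WT signal of -3.99 was not well above background. The arrays labelled amygdala read -3.30 and -2.24. Both olfactory bulb arrays lay below all arrays of the other regions. The lowest level of any probe well above background was -5.48 (WT) and -5.29 (KO) in olfactory bulb, but -3.78 and -4.18 in striatum. The striatum arrays could therefore not have shown Ucn above background at the olfactory bulb level. The log2 difference of olfactory bulb from the mean of the other 4 regions, striatum included, was -1.32 (SE 0.18, adjusted p = 0.00228, limma). Hippocampus, the next region up, exceeded olfactory bulb by 0.98 (adjusted p = 0.0183, limma). With normexp background correction the olfactory bulb difference was -0.71, under the size asked for. Among prefrontal cortex, hypothalamus, striatum and hippocampus no neighbouring regions passed the test.

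The promoter of Ucn is shown because it held the one full cAMP response element among the promoters of these genes. The motif TGACGTCA, the same on both strands, was found in 508 of 32851 RefSeq promoters (1.55%, the 250 bases before each start), and in 1 of the 15 promoters of the 8 genes. The strand is minus, at chr5:31138896-31139145 of GRCm38.p6, and capitals mark the match, 44 to 37 bases before the start.
Ucn: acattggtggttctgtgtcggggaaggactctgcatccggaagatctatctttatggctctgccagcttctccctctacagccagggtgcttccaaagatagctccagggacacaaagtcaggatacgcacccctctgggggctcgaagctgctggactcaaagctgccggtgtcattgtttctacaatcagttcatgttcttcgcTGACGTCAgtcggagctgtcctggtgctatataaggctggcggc

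Crhr1, the receptor for CRH and urocortin on chromosome 11, was highest in olfactory bulb and prefrontal cortex. Its level was 3.52 (WT) and 3.30 (KO) in olfactory bulb, 2.81 and 2.63 in prefrontal cortex, 1.26 and 1.33 in striatum, 1.09 and 1.04 in hypothalamus, and 0.71 and 0.72 in hippocampus. The arrays labelled amygdala read 1.102 and 1.47. Olfactory bulb and prefrontal cortex stood above every array of the other regions. Olfactory bulb was higher than the mean of the other 4 by 1.96 (SE 0.08, adjusted p = 3.86e-05), a 3.89-fold difference, and prefrontal cortex by 1.098 (adjusted p = 0.000488), which was 0.91 with quantile normalization. Hippocampus was lower, with a difference of -1.41 (adjusted p = 0.00031). In the order of levels, olfactory bulb exceeded prefrontal cortex by 0.69 (adjusted p = 0.0028) and prefrontal cortex exceeded striatum by 1.42 (adjusted p = 0.000215). Striatum and hypothalamus, 0.23 apart, did not pass (adjusted p = 0.0888), and hypothalamus exceeded hippocampus by 0.35 (adjusted p = 0.0408).

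A second Crhr1 probe, of the same accession, kept only part of this order. It read -1.48 (WT) and -1.49 (KO) in olfactory bulb, -2.26 and -2.25 in prefrontal cortex, -2.67 and -2.45 in striatum, -2.47 and -2.30 in hippocampus, and -3.08 and -2.98 in hypothalamus. Olfactory bulb was again highest, by 1.07 over the mean of the others (adjusted p = 0.000196), but prefrontal cortex was 0.11 above the mean (adjusted p = 0.286) and hippocampus -0.054 from it (adjusted p = 0.589). Across the 10 arrays the Crhr1 probes had a Pearson r of 0.81. The genes whose levels followed the brighter Crhr1 probe most closely over these arrays were Tmem40 (r = 0.991), Lama4 (0.985) and Fam43a (0.980), out of 5532 named genes searched.

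Crhr2, the urocortin receptor on chromosome 6, was highest in hypothalamus, with levels of 0.81 (WT) and 0.68 (KO). It read -0.46 and -0.25 in hippocampus, -0.88 and -0.84 in striatum, -1.01 and -1.28 in olfactory bulb, and -1.66 and -2.09 in prefrontal cortex. On the arrays labelled amygdala it was 0.93 (WT) and 0.22 (KO). The hypothalamus arrays lay above all arrays of the other 4 tested regions, and the prefrontal cortex arrays below all of them. Hypothalamus was higher than the mean of the other 4 by 1.81 (SE 0.13, adjusted p = 0.00067) and prefrontal cortex lower, with a difference of -1.47 (adjusted p = 0.000875). Hypothalamus exceeded hippocampus by 1.104 (adjusted p = 0.00527), hippocampus exceeded striatum by 0.50 (adjusted p = 0.0404) and olfactory bulb exceeded prefrontal cortex by 0.73 (adjusted p = 0.0139), whereas striatum and olfactory bulb were 0.28 apart (adjusted p = 0.191).

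Markers of choroid plexus, the secretory epithelium of the ventricles, were lowest in prefrontal cortex, as was Crhr2, but did not follow it on every array. Their 6 genes (Ttr, Folr1, Kl, Clic6, Kcne2 and Aqp1), all with a probe, were well above background in 2 (striatum WT) to 6 genes of an array. They summed to 19.4 (WT) and 10.4 (KO) times the 75th percentile in hypothalamus, 11.9 and 21.7 in hippocampus, and 0.462 and 0.455 in prefrontal cortex. They summed to 2.75 and 4.66 in striatum, 3.99 and 4.26 in olfactory bulb, and 19.4 and 4.53 on the arrays labelled amygdala. The hippocampus KO array had the highest choroid plexus sum and a Crhr2 level of -0.25, below the hypothalamus KO array, which had a smaller sum and a level of 0.68. Pituitary markers were highest in hypothalamus, as was Crhr2, at 44.7 (WT) and 77.4 (KO) for 5 genes, against 1.48 to 3.24 on the other tested arrays. The part of either tissue in the Crhr2 level was not tested. In such bulk samples fewer cells of a type and less RNA per cell cannot be told apart. The gene closest to Crhr2 over the 10 arrays was Tekt1 (r = 0.982), a component of motile cilia, followed by Adgrg2 (0.978) and Gdpd2 (0.961).

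**Figure D2:**
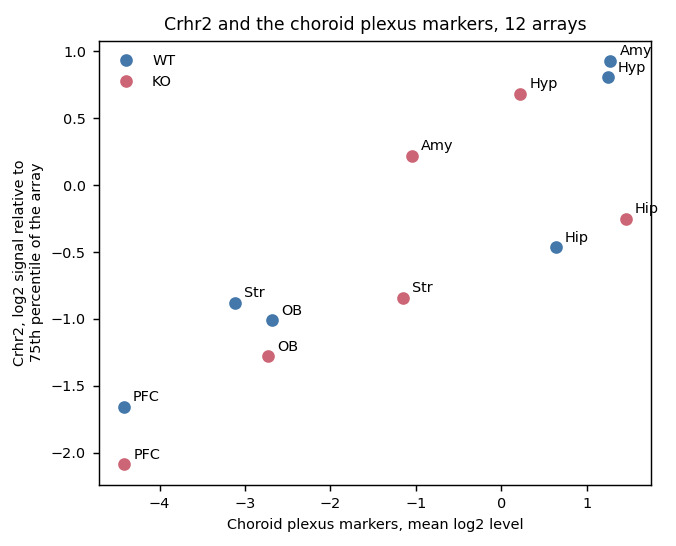
Crhr2 level (y axis, log2 signal relative to the 75th percentile) against the mean log2 level of 6 choroid plexus markers (x axis) on each of the 12 arrays, WT and KO, labelled by region. Both prefrontal cortex arrays are lowest on both axes, and the hippocampus arrays, at -0.46 and -0.25 on the y axis, lie below the hypothalamus arrays at 0.81 and 0.68.

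Crhbp, the CRH binding protein on chromosome 13, was lowest in striatum, at -1.56 (WT) and -1.89 (KO). It read -0.74 and -0.82 in olfactory bulb, -0.58 and -0.24 in prefrontal cortex, -0.30 and -0.34 in hippocampus, -0.33 and -0.16 in hypothalamus, and -0.42 and 0.30 on the arrays labelled amygdala. Only the striatum arrays stood apart from the rest, and the lowest array of another region read -0.82. The striatum arrays were also the dimmest, with a 75th percentile of 208 (WT) and 272 (KO) against 502 to 768 on the others. The part of this in the Crhbp level was not tested. Striatum was lower than the mean of the other 4, with a difference of -1.29 (SE 0.13, adjusted p = 0.000495), a 2.44-fold difference. With normexp the difference was -0.81 and no longer called. Olfactory bulb, the next region up, exceeded it by 0.95 (adjusted p = 0.00463), and the neighbours above were 0.073 to 0.37 apart without passing the test. Yipf4, Ercc3 and Herc2 had the patterns most like Crhbp, each with r of 0.977 or 0.976.

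Nr3c1, the glucocorticoid receptor on chromosome 18, had 3 probes of one accession that did not move together. The probe of highest mean, the one carried into the fits by gene, read -2.11 (WT) and -1.95 (KO) in olfactory bulb, -1.94 and -1.07 in prefrontal cortex, -2.59 and -2.24 in striatum, -1.54 and -1.38 in hippocampus, -1.45 and -1.37 in hypothalamus, and -1.62 and -1.08 on the arrays labelled amygdala. Striatum was lowest, with a difference of -0.81 from the mean of the other 4 (adjusted p = 0.00561), short of the log2 size of 1. None of the neighbouring regions passed. A second probe put hippocampus lowest, at -3.05 (WT) and -3.07 (KO), a difference of -0.90 from the others (adjusted p = 0.0309). The third put olfactory bulb lowest, at -4.56 and -4.28, a difference of -1.03 (adjusted p = 0.000607). Over the 10 arrays the pairwise r between the Nr3c1 probes was 0.41, -0.26 and -0.41.

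Fkbp5, on chromosome 17, also had 3 probes of one accession, and they disagreed on the striatum. The probe of highest mean read 0.69 (WT) and 0.56 (KO) in striatum, -0.65 and -1.13 in hippocampus, -0.81 and -1.02 in olfactory bulb, -1.42 and -1.82 in hypothalamus, and -1.65 and -2.52 in prefrontal cortex. By that probe the striatum arrays were above all others, 2.0 over the mean of the other 4 regions (SE 0.14, adjusted p = 0.000163), and prefrontal cortex was lower, with a difference of -1.38 (adjusted p = 0.0014). The second probe read -2.60 (WT) and -2.35 (KO) in striatum, -0.77 and -0.52 in hippocampus, -1.04 and -0.94 in hypothalamus, -1.66 and -1.26 in olfactory bulb, and -2.21 and -1.70 in prefrontal cortex. It placed striatum lowest, at -1.21 from the others (adjusted p = 0.000179), and hippocampus highest, at 1.07 (adjusted p = 0.000965). The third probe ran from -2.87 to -2.10, with striatum -0.059 from the others (adjusted p = 0.679) and hippocampus 0.57 above them (adjusted p = 0.0142). The second probe and the third thus both had hippocampus highest, while the first had striatum highest. The pairwise r was -0.46 between the first and the second, 0.14 between the first and the third, and 0.57 between the second and the third.

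Sgk1, on chromosome 10, was highest in hippocampus and lowest in olfactory bulb. Its level was 2.79 (WT) and 3.0 (KO) in hippocampus, 2.33 and 2.42 in striatum, 2.12 and 2.31 in prefrontal cortex, 1.80 and 1.80 in hypothalamus, and 1.23 and 1.38 in olfactory bulb. The arrays labelled amygdala read 1.90 and 1.80. The hippocampus arrays lay above all others and the olfactory bulb arrays below all others. Olfactory bulb was lower than the mean of the other 4, with a difference of -1.02 (SE 0.07, adjusted p = 0.000173), and of -0.78 from the regions scanned on the same day. It was not called with quantile normalization (-0.86), normexp (-0.94) or all 12 arrays (-0.92). Hippocampus was 0.97 above the mean (adjusted p = 0.000512), just under the size asked for. Hippocampus exceeded striatum by 0.52 (adjusted p = 0.00352), prefrontal cortex exceeded hypothalamus by 0.41 (adjusted p = 0.0191) and hypothalamus exceeded olfactory bulb by 0.50 (adjusted p = 0.00589), while striatum and prefrontal cortex were 0.16 apart (adjusted p = 0.151). The 6 markers of oligodendrocytes, a cell type known to express Sgk1, were above background on every array and summed to 578 (WT) and 424 (KO) times the 75th percentile in striatum, 242 and 259 in hippocampus, 149 and 157 in hypothalamus, and 89.2 to 99.1 in prefrontal cortex and olfactory bulb, and their part in the Sgk1 level was not tested. Hpca (r = 0.978), which encodes the calcium sensor hippocalcin, Dock4 (0.976) and Ehd1 (0.973) had the patterns most like Sgk1.

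The Sgk1 promoter is shown because it carried the full glucocorticoid response element. The motif AGAACA, any 3 bases, then TGTTCT reads the same on both strands. It was found in 3 of the 32851 promoters (0.00913%), and 1 of those 3 was among the 6 promoters that RefSeq lists for Sgk1. The arm TGTTCT alone, searched on both strands, was found in 16.1% of all promoters and in 5 of the 15 promoters of these genes, those of Sgk1, Tsc22d3 and Ucn. The strand is plus, at chr10:21993640-21993889 of GRCm38.p6, and capitals mark the match, 189 to 175 bases before the start.
Sgk1: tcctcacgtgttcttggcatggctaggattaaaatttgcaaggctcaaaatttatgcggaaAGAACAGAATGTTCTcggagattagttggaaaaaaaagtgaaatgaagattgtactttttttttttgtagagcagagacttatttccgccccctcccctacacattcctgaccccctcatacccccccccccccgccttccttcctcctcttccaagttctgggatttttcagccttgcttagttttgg

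Tsc22d3, on chromosome X, had the smallest region contrasts when each gene was read by its brightest probe. Its brighter probe read 2.12 (WT) and 2.22 (KO) in olfactory bulb, 2.53 and 2.65 in prefrontal cortex, 2.24 and 2.15 in striatum, 2.24 and 2.35 in hippocampus, 2.67 and 2.85 in hypothalamus, and 2.57 and 2.13 on the arrays labelled amygdala. Hypothalamus was highest, 0.45 above the mean of the other 4 (SE 0.07, adjusted p = 0.00577), which is under the log2 size of 1. No neighbouring regions passed. The second Tsc22d3 probe also had hypothalamus highest, at 0.57 (WT) and 0.58 (KO), 0.65 above the others (adjusted p = 0.00576). It had striatum lowest, at -0.53 and -0.58, a difference of -0.76 from the others (adjusted p = 0.00139). The Tsc22d3 probes had an r of 0.89 over the 10 arrays. Over all 8 genes, 13 of 32 neighbouring pairs of regions passed the test, against 21.6% over all genes when the regions of each gene are ordered the same way.

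The KO minus WT comparison asked whether loss of IL-18 moved these genes across the 5 regions, with region as a block in limma. None of the 8 genes passed an adjusted p of 0.05, where 0.00399% of all 25089 genes did, namely 1 gene, Il18 itself. At an unadjusted p under 0.05 there were 3 of the 8 genes and 4541 of all genes (18.1%). The median difference of the 8 was 0.041 and that of all genes -0.014. With the amygdala pair added as labelled, again none of the 8 passed (background 0.0403%), with adjusted p from 0.121 to 0.997.

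Crhr1 differed by -0.075 (SE 0.06, adjusted p = 0.538), Crhr2 by -0.11 (SE 0.10, adjusted p = 0.572), Crhbp by 0.0080 (SE 0.10, adjusted p = 0.976) and Ucn by 0.075 (SE 0.14, adjusted p = 0.805). In each of these 4 genes the sign varied between regions. The second Crhr1 probe had a mean of 0.098 (SE 0.06, adjusted p = 0.389 in a limma fit of all probes). In striatum the Ucn difference was 0.55, close to the scanner software's spot error for both arrays together, 0.53. The WT signal there was not well above background. Against the lowest level well above background on that array (-3.78), the KO signal was at least 1.27-fold higher, without allowance for spot error.

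Sgk1 was higher in the KO in 5 of 5 regions, with differences of 0.22 in hippocampus, 0.19 in prefrontal cortex, 0.16 in olfactory bulb, 0.097 in striatum and 0.0059 in hypothalamus. Only in hippocampus did the difference exceed the scanner software's spot error for both arrays together, 0.20. The mean was 0.13 (SE 0.05, adjusted p = 0.27 by limma), and the pair labelled amygdala differed by -0.099. Tsc22d3 had a mean difference of 0.084 (SE 0.06, adjusted p = 0.466) and was higher in 4 of 5 regions by both of its probes. Within the scan days Sgk1 differed by 0.20 (2 regions) and 0.088 (3 regions).

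**Figure D3:**
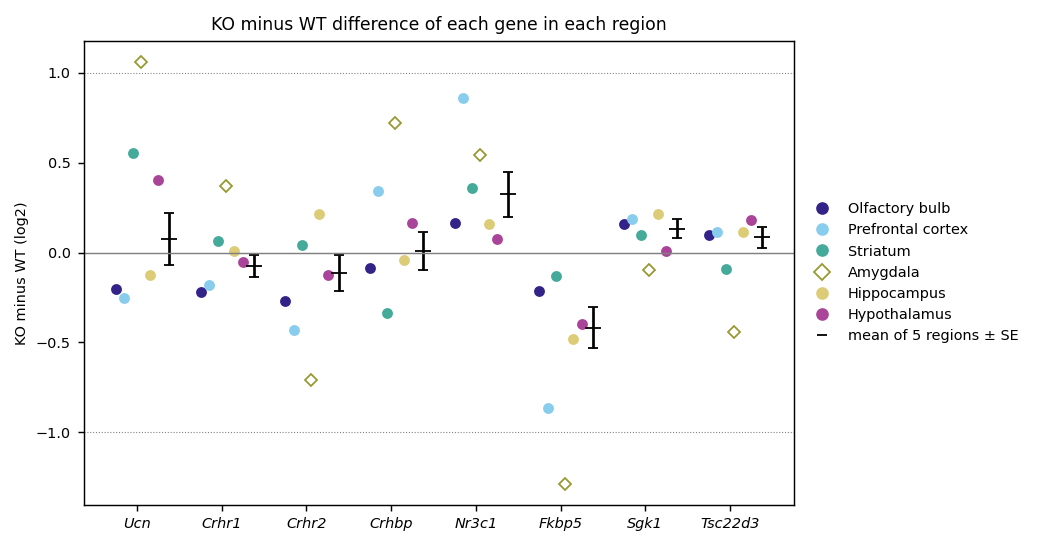
KO minus WT difference (y axis, log2) of each gene's brightest probe in each of the 6 regions, with 1 point per region. Black bars are the limma mean of the 5 regions without amygdala and its SE. Dotted lines mark a 2-fold difference, which was passed by Ucn (1.06) and Fkbp5 (-1.29) in the amygdala pair as labelled.

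By its brightest probe Fkbp5 was lower in the KO in 5 of 5 regions, with differences of -0.86 in prefrontal cortex, -0.48 in hippocampus, -0.40 in hypothalamus, -0.21 in olfactory bulb and -0.13 in striatum. The mean was -0.42 (SE 0.11, adjusted p = 0.208). The second Fkbp5 probe was higher in the KO in 5 of 5 regions, by 0.096 to 0.50, with a mean of 0.30 (SE 0.07, adjusted p = 0.173 in a limma fit of all probes). The third had a mean of -0.032 (SE 0.09, adjusted p = 0.868). The opposed signs held within each scan day, at -0.67 and -0.25 for the first probe and 0.38 and 0.25 for the second. No direction can therefore be given for Fkbp5.

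Nr3c1 likewise had no settled direction. Its brightest probe was higher in the KO in 5 of 5 regions, by 0.075 to 0.86, with a mean of 0.32 (SE 0.12, adjusted p = 0.263). The second probe had a mean of -0.25 (SE 0.19, adjusted p = 0.485), with 4 of 5 regions below 0, and the third probe a mean of 0.0037 (adjusted p = 0.984). In prefrontal cortex the first probe differed by 0.86 and the second by -1.02. In hypothalamus the 3 probes lay between -0.11 and 0.075.

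**Figure D4:**
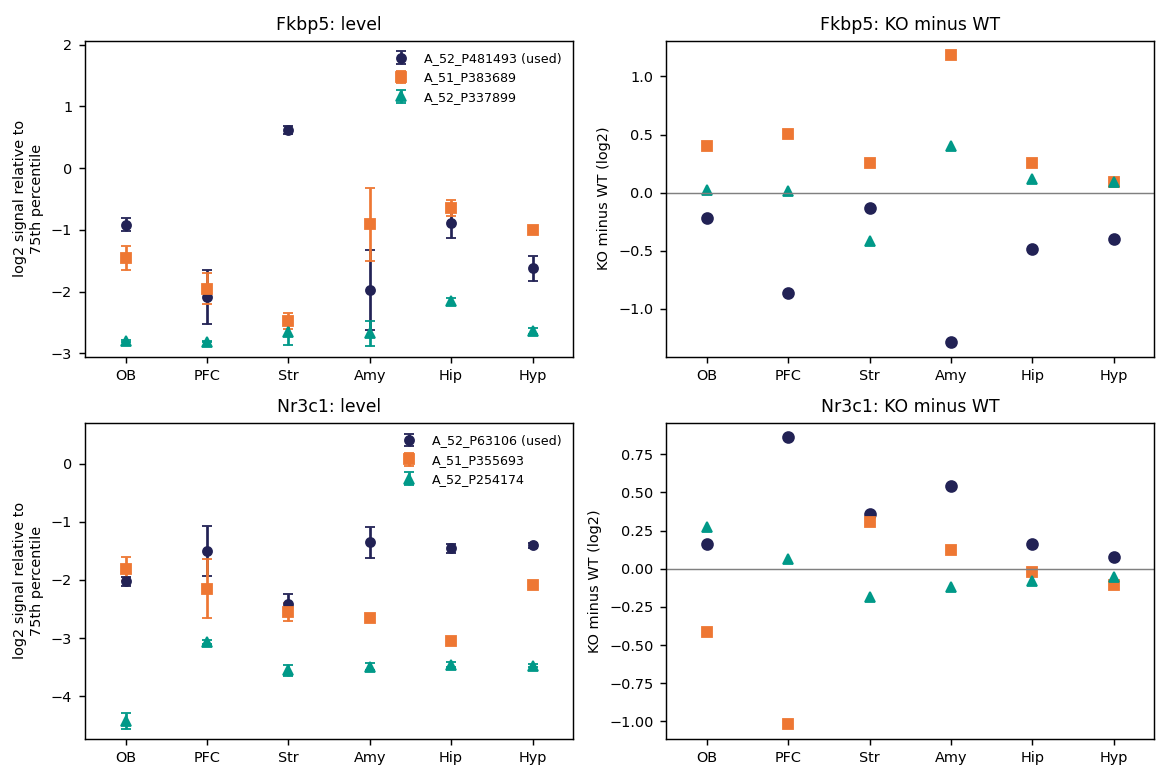
Each of the 3 probes of Fkbp5 (top) and Nr3c1 (bottom) in the 6 regions. Left, the mean level of the WT and KO arrays (log2 relative to the 75th percentile), with bars reaching to the WT and the KO value; right, KO minus WT (log2), with 1 point per region. In amygdala the first Fkbp5 probe reads -1.29 and the second 1.18, and in prefrontal cortex the first Nr3c1 probe reads 0.86 and the second -1.02.

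With 1 array for each genotype, a single region allows no test, and a size of 2-fold was used. Each gene was counted by its brightest probe. Of 47 pairs of gene and region above background on both arrays, 2 were 2-fold apart, against 2.69% over all genes and regions. Both were in the pair labelled amygdala, where 6.86% of all genes were 2-fold apart. None were in prefrontal cortex (4.33%), hippocampus (1.75%), striatum (1.56%), hypothalamus (0.983%) or olfactory bulb (0.924%). In the pair labelled amygdala, Ucn read -3.30 on the WT and -2.24 on the KO array, a difference of 1.06, and Fkbp5 read -1.33 and -2.61 by its brightest probe, a difference of -1.29. The second Fkbp5 probe read -1.50 and -0.32 in the same pair, a difference of 1.18. Another probe outside the count was the second of Nr3c1, at -1.02 in prefrontal cortex. In the authors' deposited table the amygdala log2 ratios were 1.05 for Ucn, -1.29 for the first Fkbp5 probe and 1.18 for the second. The members' levels on the array labelled amygdala WT were 0.012 to 0.18 from those on the hypothalamus WT array, with a median of 0.095, whereas the KO arrays of these regions had a median distance of 0.46. Genotype and the origin of that array cannot be told apart in the amygdala values.

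Other genes of the axis were read from 3 lists. Of 16 genes of the hypothalamic, pituitary and adrenal axis, 14 were tested between regions, each well above background on both arrays of at least 1 region. Under the filter of the KO minus WT fit 11 were tested. A gene bright in hypothalamus alone could thus enter by the region in which it was called. The filter can therefore have a part in the count and median that follow. Of the 14, 8 were called higher (3.3% of all genes under the same filter) and 1 lower (5.14%) in hypothalamus, with a median of 1.65 against -0.16 for all genes. Avp, Oxt and Sim1, all among the 8, are also among the 7 hypothalamic markers. Avpr1a, Sim1 and Ucn3, likewise among the 8, were tested only under the region filter. The count and median are therefore in part fixed by how the genes were chosen and filtered. Avp, the vasopressin gene, was higher in hypothalamus by 8.18 (SE 0.23, adjusted p = 0.000101), Oxt, the oxytocin gene, by 6.50 (adjusted p = 0.000161) and Pomc, the precursor of ACTH, by 4.76 (adjusted p = 0.000382). Adcyap1, which encodes the peptide PACAP, was higher in hypothalamus by 2.84 and in prefrontal cortex by 2.07, and lower in striatum (-3.56) and hippocampus (-2.05). Pomc read -0.058 (WT) and 1.13 (KO) in hippocampus, the only gene of the 3 lists that was 2-fold apart within a region other than amygdala. In the same hippocampus pair the 4 pituitary markers above background on both arrays (of 5, Pomc not among them) had a median difference of 0.81, with 2 of them 2-fold higher on the KO array, and the 6 choroid plexus markers a median of 0.79, also with 2. Their part in the Pomc value was not tested. In the KO minus WT fit 0 of 11 tested genes of this list passed, 3 had an unadjusted p under 0.05 (18.1% of all genes did), and the median was 0.13 against -0.014 for all genes.

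Of 16 receptor partners and steroid-handling genes, 15 were tested, and 1 gene was called both higher (27.8% of all genes) and lower (24.2%) in at least 1 region. This was Hsd11b1, the enzyme that regenerates active glucocorticoid, with levels of 2.34 (WT) and 2.45 (KO) in hippocampus and -1.15 to 1.25 on the other tested arrays. It was higher in hippocampus by 2.49 (SE 0.11, adjusted p = 0.000167) and lower in striatum (-1.70) and olfactory bulb (-1.66). Hippocampus was thus the highest region of both Hsd11b1 and Sgk1, though Sgk1 (0.97) was not called there. Tsc22d3 was highest in hypothalamus, and Fkbp5 in striatum or hippocampus depending on the probe. Any link between Hsd11b1 and these genes was not tested. Between genotypes 0 of the 15 passed, 5 had an unadjusted p under 0.05 (all genes 18.1%), and the median was 0.051 (all genes -0.014).

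Of 25 further glucocorticoid-induced genes, 22 were tested, of which 5 were called higher (27.8% of all genes) and 6 lower (24.2%) in at least 1 region. Cebpd, a transcription factor gene, was higher in hippocampus by 2.63 (adjusted p = 0.00012). Cdkn1a, which encodes the cell cycle inhibitor p21, was higher in olfactory bulb by 2.64 (adjusted p = 3.09e-05). Gpd1, a glycerol phosphate dehydrogenase gene, was lower in hypothalamus (-1.76, adjusted p = 0.000308), and Pdk4, a kinase that restrains pyruvate oxidation, was lower in olfactory bulb (-1.33, adjusted p = 0.000258). The largest differences of these 4 genes fell in 3 different regions. In the KO minus WT fit 0 of the 22 passed, 4 had an unadjusted p under 0.05 (all genes 18.1%), 9 were above and 13 below 0, and the median of -0.022 lay near that of all genes.

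Genes induced by neuronal activity were also read between genotypes. All 6 immediate early genes had a KO minus WT difference below 0, from -0.58 to -0.24 with a median of -0.35, each at an unadjusted p under 0.05 (18.1% of all genes) and none past the adjusted threshold. The summed level of the 6 ran from 40.4 to 164 on the 5 WT arrays and from 31.6 to 120 on the 5 KO arrays. All 4 measured microglia markers had a difference above 0, with a median of 0.32, 2 of them at an unadjusted p under 0.05 and none past the threshold. Their summed level ran from 2.37 to 4.69 on the 5 WT arrays and from 3.16 to 6.0 on the 5 KO arrays. The part of either list in the values of Fkbp5, Sgk1 and Tsc22d3 was not tested.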

How the data were processed

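RNA of 6 brain regions was measured on 12 one-colour Agilent arrays, with 400 ng of RNA labelled with Cy3 per the labels' protocols. Spot intensity was deposited as output of Agilent Feature Extraction 9.5.3.1, which had subtracted background, per the file headers. The authors' deposited table gives KO over WT ratio values. Its log2 ratio differed from the differences computed here by 1 constant per region, between -0.014 and 0.0078. How the authors scaled their arrays is unstated in these sources.

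From the deposited intensity, log2 was taken and each array's 75th percentile subtracted. No spot was saturated; control spots and the 61 to 143 outlier spots of an array were dropped. Accessions were matched to RefSeq (GRCm38.p6), which named 22951 of 41174 probes (55.7%). The probe of highest mean over 12 arrays stood for a gene. Fits used limma 3.58.1 (lmFit, eBayes) in R 4.3.3 over all genes with Benjamini-Hochberg adjustment. KO minus WT required a probe well above background on at least 5 of 10 arrays. Fits between regions required it on both arrays of at least 1 region. On simulated data of 25089 genes with independent noise, 100 genes were changed by a log2 of 1 and 100 by 2. At an adjusted p under 0.05 the KO minus WT fit recovered 84% of those changed by 1. For hippocampus against the rest it was 67%, scored without the size rule of the region calls. Unchanged genes called were 5 and 14. With so many changed genes, these shares do not give the power of the real fits. The number of arrays limits the precision.

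The genes and lists were chosen with earlier results of these data known. Named from the 3 lists were genes past the KO minus WT threshold, those 2-fold apart in 1 of the 5 regions, and up to 4 per list with the largest region difference. Normexp, planned on mean signals, used median signals (offset 50). Sequences are from RefSeq; promoters of all 8 genes were searched.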

Additional observations from a re-analysis of the deposited data

How the results depend on the processing

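No gene of the 8 passed the KO minus WT threshold under 14 other settings (13 for Ucn, which the strictest filter on dim probes removes), which included median, quantile and normexp scaling, all 12 arrays, other filters, no region block and each region left out; over all genes the count ran from 1 to 14. The fit by region is the paired one, since each slide held both genotypes of a region; with no region block the genes at an unadjusted p under 0.05 went from 4541 to 68. No analysis paired by replicate number was possible because the labels give none. Of 40 region pairs 10 were called, against 6 with the mean of a gene's probes, 7 with normexp, and 9 with quantile normalization, with all 12 arrays or, of 35 pairs, with probes above background on all arrays. The mean of probes ended the calls of Fkbp5 in striatum (0.24) and prefrontal cortex (-0.73) and of Crhr1 in prefrontal cortex (0.60) and hippocampus (-0.73). Normexp ended those of Crhbp in striatum (-0.81), Ucn (-0.71) and Sgk1 (-0.94) in olfactory bulb. Quantile normalization ended that of Sgk1 (-0.86) and of Crhr1 in prefrontal cortex (0.91) while another pair was gained, and all 12 arrays that of Sgk1 (-0.92). The count of 2 pairs of gene and region that were 2-fold apart became 0 with normexp on raw signals and 1 with the mean of a gene's probes. Some KO minus WT values changed sign. Crhr1 became 0.012 with the mean of its probes and 0.098 by its other probe. Crhbp became -0.0077 with quantile normalization, Ucn -0.092 with normexp, and Tsc22d3 -0.0037 with all 12 arrays. Nr3c1 became -0.25 and Fkbp5 0.30 by another probe, and Fkbp5 in striatum against the others became -1.21 and -0.059. With each region left out, Crhbp ran from -0.075 (without prefrontal cortex) to 0.094 and Ucn from -0.044 (without striatum) to 0.16, and the other 6 genes kept their sign. The Ucn value in olfactory bulb could not be tested with probes well above background on all arrays. Fits of single probes were added after the data were seen. The cause of these changes was not tested. Signal over background limits Ucn, which did not clear it on the striatum WT array.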

Other observations

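The distance between probes of one gene was set beside the same distance over all genes that had at least 2 probes above background, most of which have fewer probes than the 3 of Fkbp5 and Nr3c1. In the pair labelled amygdala the KO minus WT values of the Fkbp5 probes spanned 2.47, and 8 of 4052 genes (0.197%) spanned as much. In prefrontal cortex the Nr3c1 probes spanned 1.88, as much as 15 of 4145 genes (0.362%), and the Fkbp5 probes 1.37, as much as 64 (1.54%). The median span was 0.30 in both. In hypothalamus the Nr3c1 probes spanned 0.18, reached by 36.6% of 4396 genes, and the Crhr1 and Tsc22d3 probes stayed between 0.042 and 0.52 in every region. Which transcript ends each probe reads was not analysed here.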
